A study of Mus musculus with 8 samples.

Results

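The classical cadherins, their unconventional relatives and the non-clustered protocadherins were examined in the neonatal mouse cortex after loss of 2 scaffolding subunits of the BAF chromatin remodelling complex. The genes were chosen by name: every protein-coding gene whose symbol is Cdh or Pcdh followed by a number, with an optional x, and without Cdh5, the endothelial cadherin. This gave 34 of the 48709 genes in the count tables, of which 22 were cadherins and 12 were protocadherins. All 34 had counts in at least 1 sample, and 29 had enough counts to be tested.

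Cadherins are single-pass or lipid-anchored membrane proteins whose extracellular repeats are made rigid by calcium and bind cadherins on the neighbouring cell. The classical types I and II hold cells together through catenins, which link their tails to actin, and neurons carry different type II cadherins according to area, layer and circuit. The non-clustered protocadherins lack the catenin-binding tail. The delta-1 and delta-2 classes among them differ in their cytoplasmic motifs, and several recruit the WAVE complex, a regulator of actin branching, during axon growth and synapse formation.

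RNA sequencing was carried out on the cortex of 4 dcKO_hGFAP-Cre (dcKO) mice and 4 control mice at postnatal day 3, all on a C57BL/6J background, and the methods name the tissue as dorsal telencephalon. The dcKO mice were BAF155 fl/fl; BAF170 fl/fl; hGFAP-Cre pos/+, so that Cre recombinase, driven by a human GFAP promoter, removed both genes in radial glia of the dorsal telencephalon and in the cells derived from them. According to the methods the controls were BAF155 fl/+; BAF170 fl/+; Cre pos/+, and thus also carried Cre and 1 floxed copy of each gene, whereas the sample titles call them WT. Cells that do not descend from Cre-expressing progenitors, such as microglia, endothelial cells and immigrant interneurons, keep both genes in the mutant tissue, and the mutants die soon after birth. Cells that the same radial glia produced before Cre acted need not lack the genes. Expression is given in CPM, in which each gene's count is divided by its library's effective size after edgeR's TMM normalization. A gene was called changed at an adjusted p under 0.05 in edgeR's quasi-likelihood test over all 16525 genes tested, with Benjamini-Hochberg adjustment.

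The control libraries held 21126713 to 31805395 counts and the dcKO libraries 22002784 to 32110285, so that 3 counts corresponded to between 0.0906 and 0.148 CPM. Smarcc1, which encodes BAF155, was at 144, 162, 170 and 160 CPM in control replicates 1 to 4 and at 79.4, 73.6, 86.9 and 84.7 CPM in dcKO replicates 1 to 4. Smarcc2, which encodes BAF170, was at 469 to 500.3 CPM in control and at 256 to 319 CPM in dcKO samples. Both deleted genes were lower in every mutant than in any control, by 0.97 (SE 0.08, adjusted p = 5.44e-06) and by 0.77 (SE 0.08, adjusted p = 2.28e-05) on the log2 scale. The mitochondrial genome supplied 2.06 to 3.23% of counts in control and 3.57 to 5.47% in dcKO libraries. The libraries of dcKO replicates 1 and 2 stood apart in the choroid plexus gene Ttr, with 584 and 1128 CPM against 0.0664 to 15.8 CPM in the other 6 samples.

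Among the 29 tested genes, 14 (48.3%) were called changed, against 37.5% of all genes tested. Expression fell for 10 (34.5%), where 18.9% of all genes fell, and rose for 4 (13.8%), where 18.6% of all genes rose. The 10 that fell were Cdh2, Cdh6, Cdh8, Cdh9, Cdh10, Cdh11, Cdh12, Cdh20, Pcdh9 and Pcdh12, and the 4 that rose were Cdh7, Pcdh11x, Pcdh17 and Pcdh18. The median log2 fold change was -0.17 over the 29 genes and 0.02 over all genes tested. In 12 of the 29 genes the 4 dcKO values did not overlap the 4 control values, 8 lying below and 4 above, compared with 34.4% of all genes, of which 17.7% lay below and 16.7% above. Of the 29 genes, 3 were called and changed by at least 1 on the log2 scale, Cdh20, Pcdh12 and Cdh6, against 7.21% of all genes tested. The number that rose was 7 without dcKO replicate 3, where 3125 of all 16489 genes tested rose. With library totals in place of TMM, 7 rose and 7 fell, where 4584 of all 16525 genes tested rose and 2102 fell.

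**Figure D1:**
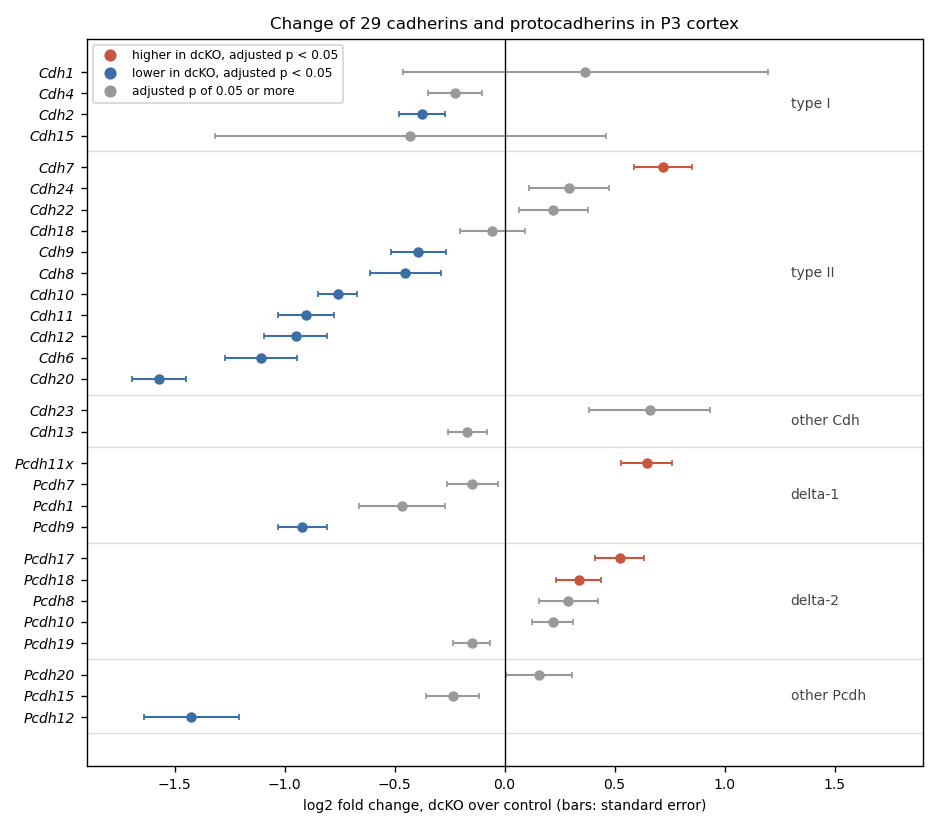
Log2 fold change (dcKO over control, x axis) of the 29 tested cadherins and protocadherins, grouped by family (y axis), with bars for the standard error; red and blue mark genes called higher and lower. Type II cadherins hold 7 of the 10 falls, from -0.39 for Cdh9 to -1.57 for Cdh20, and the rises range from 0.34 for Pcdh18 to 0.72 for Cdh7.

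Markers of several cell types differed between the groups, and bulk RNA cannot tell fewer cells of a type from less RNA per cell. Of all genes tested, 18.9% fell and 18.6% rose. All 5 upper-layer neuron markers fell, with a summed level of 730 to 957 CPM in control and 378 to 428 CPM in dcKO samples. Of the deep-layer neuron markers, 2 of 6 fell, and their sums overlapped, at 718 to 845 CPM in control and 546 to 743 CPM in dcKO samples. All 6 oligodendrocyte precursor markers fell (422 to 456 CPM in control, 234 to 312 CPM in dcKO samples), as did 4 of 7 endothelial markers (181 to 239 and 100.2 to 177 CPM). Markers of GABAergic interneurons rose in 7 of 8 cases (596 to 614 CPM in control, 914 to 994 CPM in dcKO samples), those of striatal neurons in 5 of 8 (122 to 175 and 364 to 703 CPM) and those of microglia in 5 of 6 (82.1 to 109 and 155 to 191 CPM). Of the striatal sum, Ppp1r1b alone gave 34.2 to 49.1 CPM in control and 271 to 343 CPM in dcKO samples. All mutants lay above all controls in only 2 of the 8 striatal markers, Ppp1r1b and Tac1. Drd1 was not called, at 16.7 to 23.8 CPM in control and 7.58 to 28.7 CPM in dcKO samples. Thalamus and midbrain markers rose in 4 of 5 cases (52.0 to 63.7 CPM in control, 70.5 to 107 CPM in dcKO samples), and Gbx2 among them had a count of 0 in control replicates 1 and 4. Most of these sums came from Slc17a6, the marker that was not called. It was at 47.4 to 56.4 CPM in control and 50.3 to 78.3 CPM in dcKO samples, with overlap. Of the radial glia and astrocyte markers 1 of 6, Vim, rose. Their sum of 2702 CPM in dcKO replicate 3 lay above the 1175 to 1713 CPM of the other samples. In dcKO replicates 1, 2 and 4, Aldoc, Aqp4, Gfap and Slc1a3 lay below every control, Vim lay above, and Fabp7 overlapped. There Aldoc was at 33.2 to 43.5, Aqp4 at 9.49 to 9.92 and Gfap at 24.2 to 32.2 CPM. The controls were at 164 to 215, 38.8 to 63.7 and 79.3 to 89.5 CPM, and dcKO replicate 3 at 245, 53.0 and 273 CPM. Over all 4 mutants, Aldoc, Aqp4, Gfap and Slc1a3 were not called. No fibroblast and meningeal marker (6 tested) and no erythroid marker (4 tested) was called. Of the choroid plexus markers 1 of 5 rose, with sums of 3.88 to 13.3 CPM in control and 3.98 to 1170 CPM in dcKO samples. The rises in the radial glia and choroid plexus lists, 1 of 6 and 1 of 5, lay near the 18.6% of all genes that rose. The part of the marker differences in the cadherin results was not tested.

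The promoters of 4 genes are printed as examples from both directions: Cdh20 and Cdh6 are the type II cadherins that fell most, and Pcdh9 and Pcdh17 are delta protocadherins of chromosome 14 that moved in opposite directions. Each line gives the 250 bases before the RefSeq transcription start on the gene's own strand, 5′ to 3′, from GRCm38.p6, the assembly also called mm10. CG dinucleotides are in capitals. The Cdh20 stretch lies at chr1:104768270-104768519 on the plus strand, Cdh6 at chr15:13173676-13173925 on the minus strand, Pcdh9 at chr14:93890680-93890929 on the minus strand and Pcdh17 at chr14:84443313-84443562 on the plus strand.
Cdh20: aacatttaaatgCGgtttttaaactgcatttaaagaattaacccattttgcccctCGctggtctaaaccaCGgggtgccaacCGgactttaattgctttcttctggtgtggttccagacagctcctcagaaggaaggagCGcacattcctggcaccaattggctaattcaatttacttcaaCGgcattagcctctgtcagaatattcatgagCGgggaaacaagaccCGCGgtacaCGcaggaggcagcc
Cdh6: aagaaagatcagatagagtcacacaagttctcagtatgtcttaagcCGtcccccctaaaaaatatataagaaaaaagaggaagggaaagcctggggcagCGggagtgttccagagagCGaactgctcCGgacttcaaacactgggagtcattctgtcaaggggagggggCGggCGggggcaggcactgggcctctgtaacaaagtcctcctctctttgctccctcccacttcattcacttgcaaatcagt
Pcdh9: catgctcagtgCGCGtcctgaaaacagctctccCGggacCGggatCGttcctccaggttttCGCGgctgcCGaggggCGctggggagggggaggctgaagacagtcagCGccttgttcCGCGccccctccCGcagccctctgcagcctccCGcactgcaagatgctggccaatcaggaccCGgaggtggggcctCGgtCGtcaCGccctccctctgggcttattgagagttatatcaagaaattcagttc
Pcdh17: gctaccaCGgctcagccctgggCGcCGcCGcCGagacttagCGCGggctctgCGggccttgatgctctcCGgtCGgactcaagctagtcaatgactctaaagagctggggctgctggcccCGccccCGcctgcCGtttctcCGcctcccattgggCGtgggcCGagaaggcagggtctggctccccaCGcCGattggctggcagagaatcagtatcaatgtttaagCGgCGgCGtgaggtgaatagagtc

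These stretches held 10 CG dinucleotides in Cdh20, 6 in Cdh6, 18 in Pcdh9 and 21 in Pcdh17. A RefSeq promoter window of 300 bases (250 before and 50 after the start) within 1000 bases of the annotated gene start was at hand for 18 of the 34 genes. The median was 7 CG dinucleotides over all 32851 windows of the genome table, 18 (range 8 to 21) over the 5 genes that fell, 23 (18 to 26) over the 3 that rose and 14 (4 to 38) over the 9 that were not called. The ranges of the 3 sets overlapped. The GC box GGGCGG, searched on both strands, was found in 9 of the 18 windows, against 35.66% of all windows, and within those in 2 of 5 genes that fell and 2 of 3 that rose. The letters TATAAA were found in 1 of the 18 windows and in 13.62% of all windows.

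Type I cadherins bind through a single conserved tryptophan and form the strong junctions of epithelia and of the ventricular surface. Cdh2, N-cadherin, the main classical cadherin of neural progenitors and synapses, was at 246, 225, 231 and 199.5 CPM in control replicates 1 to 4 and at 180, 156, 154 and 205 CPM in dcKO replicates 1 to 4. The mutants 1 to 3 lay below every control, whereas dcKO replicate 4 lay within the control range. The log2 fold change was -0.38 (SE 0.10, adjusted p = 0.0127), a fall of 22.9% in the mean. The call was lost with library totals (adjusted p = 0.0704) and without dcKO replicates 1 and 2 (adjusted p = 0.129).

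Cdh4, R-cadherin, which is structurally close to N-cadherin, was at 80.9 to 106 CPM in control and 65.7 to 93.1 CPM in dcKO samples, and its change of -0.23 (SE 0.12) was not called (adjusted p = 0.161). Cdh1, the epithelial E-cadherin, was barely expressed, at 0.278 to 1.38 CPM in control and 0.212 to 2.31 CPM in dcKO samples. Cdh15, M-cadherin of muscle and cerebellar granule cells, varied from 0.764 to 4.92 CPM among controls and from 0.239 to 5.22 CPM among mutants. Neither Cdh1 (adjusted p = 0.759) nor Cdh15 (adjusted p = 0.739) was called, and both spread over a wider range within each group than between the group means. Cdh3, P-cadherin, was not tested: its counts were 1, 2, 3 and 5 in controls and 25, 43, 3 and 6 in mutants. The 2 higher values of Cdh3 belonged to dcKO replicates 1 and 2, the libraries with the high Ttr levels.

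Type II cadherins form the largest family group, with 12 genes, and in the brain they mark subdivisions of cortex, thalamus and brainstem. Of the 11 tested, 7 fell, 1 rose and 3 were not called, where 18.9% of all genes tested fell and 18.6% rose. Their summed level was 449.7 to 496 CPM in control and 267 to 340 CPM in dcKO samples, without overlap. Over the 11, the median log2 fold change was -0.45.

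Cdh20 showed the largest change of the 29 genes. It was at 30.6, 28.3, 30.5 and 29.1 CPM in control replicates 1 to 4 and at 9.06, 9.96, 12.3 and 8.48 CPM in dcKO replicates 1 to 4. The controls were almost equal, and every mutant lay far below the lowest of them. The mean was 2.97 times as high in control as in dcKO cortex (log2 fold change -1.57, SE 0.12, adjusted p = 3.17e-06).

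Cdh6, a cadherin of kidney and of defined cortical and retinal circuits, was at 20.7, 17.4, 20.6 and 19.2 CPM in control and at 10.004, 6.95, 7.30 and 11.8 CPM in dcKO replicates 1 to 4. No mutant reached the lowest control. The fall was 1.11 on the log2 scale (log2 fold change -1.11, SE 0.16, adjusted p = 2.82e-04). Cdh12, also known as Br-cadherin, was at 22.2, 23.6, 15.7 and 17.0 CPM in control and at 9.79, 8.98, 10.7 and 11.02 CPM in dcKO replicates 1 to 4. The controls split into a higher and a lower pair, and the mutants lay close together below both. Its log2 fold change was -0.95 (SE 0.14, adjusted p = 3.54e-04).

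Cdh11, OB-cadherin, first described in bone-forming cells and widely present in mesenchyme and developing brain, was among the more abundant type II cadherins. It was at 119, 140, 137 and 138 CPM in control and at 71.7, 56.8, 91.5 and 65.3 CPM in dcKO replicates 1 to 4. Control replicate 1 was the low control and dcKO replicate 3 the high mutant, and a gap remained between them. The log2 fold change was -0.90 (SE 0.13, adjusted p = 2.20e-04). Fibroblast and meningeal markers, whose cells also carry Cdh11, were at a summed 69.2 to 163 CPM in control and 37.5 to 229 CPM in dcKO samples, with 0 of 6 called, and their part in the Cdh11 result was not tested.

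Cdh10 was at 67.0, 68.4, 80.8 and 75.5 CPM in control and at 40.5, 40.5, 45.1 and 46.2 CPM in dcKO replicates 1 to 4. The mutants were tightly grouped, and each lay well under the lowest control. Its log2 fold change of -0.76 had the smallest standard error of the 10 falls (SE 0.09, adjusted p = 5.62e-05). Cdh9, a cadherin of the hippocampal mossy fibre synapse, was at 21.2, 27.7, 20.7 and 21.5 CPM in control and at 18.2, 19.6, 16.5 and 15.1 CPM in dcKO replicates 1 to 4. The groups did not overlap, but dcKO replicate 2 and control replicate 3 were close to each other. The change was -0.39 (SE 0.12, adjusted p = 0.0256), and the call was lost without dcKO replicate 4 or control replicate 2 (adjusted p up to 0.0792) and with library totals (adjusted p = 0.104).

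Cdh8, which marks frontal cortical areas, thalamic nuclei and striatal territories in the developing forebrain, was at 110, 140, 116 and 106 CPM in control and at 107, 62.6, 101 and 75.1 CPM in dcKO replicates 1 to 4. The groups overlapped, since dcKO replicate 1 lay above control replicate 4. Its log2 fold change of -0.45 (SE 0.16) passed the threshold narrowly (adjusted p = 0.0473), and the call was lost in 11 of 17 alternative fits, among them the removal of each single control, the replicate number as a block (adjusted p = 0.0562) and the sequencing lane as a block (adjusted p = 0.0578).

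Cdh7, which is known from chick neural crest and hindbrain, was the 1 type II cadherin that rose. It was at 14.9, 14.7, 12.4 and 14.7 CPM in control and at 21.3, 21.4, 20.8 and 29.7 CPM in dcKO replicates 1 to 4. All mutants lay above all controls, and dcKO replicate 4 stood above the other mutants. The mean was 1.65 times as high in dcKO as in control cortex (log2 fold change 0.72, SE 0.13, adjusted p = 0.00127). Cdh18 (log2 fold change -0.06, or 0.063 with library totals, adjusted p = 0.791), Cdh22, the pituitary and brain cadherin (0.22, adjusted p = 0.281), and Cdh24 (0.29, adjusted p = 0.221) were not called, and their groups overlapped. Cdh19, known from Schwann cell precursors, was not tested, with 1 to 9 counts in each sample.

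**Figure D2:**
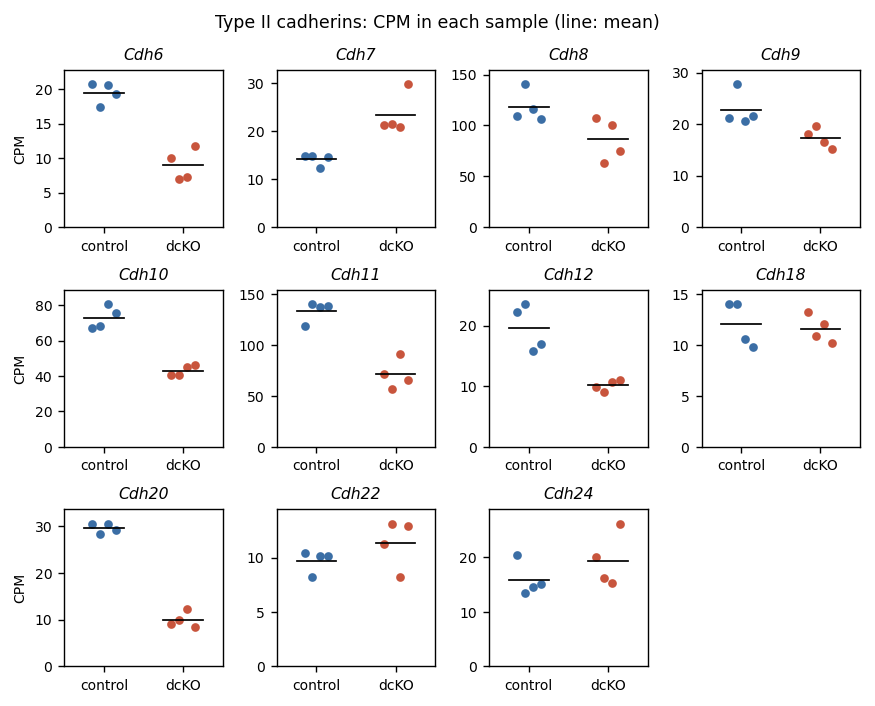
CPM (y axis, starting at 0) of the 11 tested type II cadherins in each control (blue) and dcKO (red) sample, with the group mean as a line. The groups are separate for Cdh6, Cdh9, Cdh10, Cdh11, Cdh12 and Cdh20, all lower in dcKO, and for Cdh7, which is higher, while Cdh8 overlaps.

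Some genes of the family lie near each other on 1 chromosome. On chromosome 1, Cdh20 (104768529-104995481), which fell, is followed among the family by Cdh7 (109982431-110140157) on the same strand, which rose, and by the barely detected Cdh19 (110888326-110977584). On chromosome 15, Cdh6 (13028701-13173675), Cdh9 (16728756-16857094), Cdh10 (18818947-19014236) and Cdh12 (20449265-21589533) fell, whereas the fifth gene of that run, Cdh18 (22549022-23474418), did not pass the test. Chromosome 8 carries Cdh8 (99024471-99416471) and Cdh11 (102632095-102785642), which fell. It also carries Cdh1, Cdh13 and Cdh15, which were not called, and Cdh3 and Cdh16, which were not tested. On chromosome 14, Pcdh8 (79766775-79771312) was not called, Pcdh17 (84443563-84539002) rose, Pcdh20 (88464743-88471396) was not called and Pcdh9 (93013410-93890679) fell. Cdh24 (54631231-54641364), farther off on that chromosome, was not called. On chromosome 18, Pcdh1 (38185914-38212053) was not called (-0.47) and Pcdh12 (38267089-38284402) fell (-1.43), and on chromosome 3, Pcdh10 (45378398-45435623) was not called (0.22) and Pcdh18 (49743296-49757325) rose (0.34). In the GENCODE annotation, exons of Cdh8, Cdh9, Pcdh7, Pcdh8, Pcdh10 and Pcdh19 overlap an antisense gene, whose reads cannot be told apart where strand was not used in counting. Exons of Cdh12 overlap a gene of the same strand, whose reads cannot be told apart by strand at all.

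The remaining cadherins do not belong to types I and II. Cdh13, T-cadherin, which is held in the membrane by a lipid anchor and has no tail, was at 242, 233, 236 and 203 CPM in control and at 219, 180, 193 and 220.1 CPM in dcKO replicates 1 to 4. The groups overlapped, and the change of -0.17 (SE 0.09) was not called (adjusted p = 0.150). Cdh23, a component of the tip link of hair cells, was at 0.739 to 1.52 CPM in control and 1.13 to 2.17 CPM in dcKO samples, with a log2 fold change of 0.66 (SE 0.28, adjusted p = 0.0784) that passed the threshold in 3 of 17 alternative fits. The kidney cadherin Cdh16 had at most 1 count, the gut and liver cadherin Cdh17 at most 3 and Cdh26 at most 10 counts in any sample, and none of them was tested.

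The 12 protocadherins were all tested. Of these, 5 were called, 2 lower and 3 higher, which is close to the 37.5% of all genes tested that were called (18.9% lower and 18.6% higher). Their summed level overlapped between the groups, at 1060 to 1181 CPM in control and 1047 to 1291 CPM in dcKO samples. The summed level of the 22 cadherins, by comparison, was 943 to 1053 CPM in control and 704 to 831 CPM in dcKO samples.

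Delta-1 protocadherins moved in both directions. Pcdh9 was at 148, 136, 127 and 126 CPM in control and at 66.5, 62.5, 65.1 and 89.4 CPM in dcKO replicates 1 to 4. The first 3 mutants lay close together and dcKO replicate 4 was higher, still below every control. The log2 fold change was -0.92 (SE 0.11, adjusted p = 7.33e-05). Pcdh11x, the X-linked delta-1 protocadherin, was at 56.1, 52.6, 37.9 and 43.8 CPM in control and at 77.3, 70.4, 70.0 and 79.9 CPM in dcKO replicates 1 to 4. Every mutant lay above every control. The change was 0.65 (SE 0.12, adjusted p = 0.00111), a mean 1.56 times as high in dcKO as in control cortex.

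Pcdh1, a protocadherin also known as an entry receptor of New World hantaviruses, was at 109, 155, 192 and 178 CPM in control and at 112, 90.3, 106 and 151 CPM in dcKO replicates 1 to 4. Control replicate 1 was as low as the mutants and dcKO replicate 4 was near control replicate 2, so the groups overlapped. Its log2 fold change of -0.47 (SE 0.19) missed the threshold (adjusted p = 0.0871), and 5 of 17 alternative fits called it, with an adjusted p down to 0.00931, among them the replicate number (adjusted p = 0.0285) and the lane (adjusted p = 0.0193) as a block. Pcdh7, at 106 to 149.8 CPM in control and 99.6 to 128 CPM in dcKO samples, was not called (-0.15, adjusted p = 0.338).

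Delta-2 protocadherins include the members best known for recruiting the WAVE complex. Of the 5 tested, 2 rose, none fell and 3 were not called, where 18.6% of all genes tested rose and 18.9% fell. Their summed level was 569 to 645 CPM in control and 663 to 813 CPM in dcKO samples. Pcdh17, which sorts corticobasal ganglia circuits and promotes the joint extension of axons, was at 127, 146, 130 and 111 CPM in control and at 183, 158, 173 and 224 CPM in dcKO replicates 1 to 4. The lowest mutant lay above the highest control. The log2 fold change was 0.52 (SE 0.11, adjusted p = 0.00346).

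Pcdh18, which binds the reelin adaptor Dab1, was at 23.5, 31.6, 27.9 and 26.6 CPM in control and at 37.2, 32.8, 34.5 and 33.8 CPM in dcKO replicates 1 to 4. The groups were separate, although dcKO replicate 2 was close to control replicate 2. The change was 0.34 (SE 0.10, adjusted p = 0.0200), and the call was lost when dcKO replicate 1, control replicate 1 or control replicate 4 was left out, with an adjusted p up to 0.0651, and without dcKO replicates 1 and 2 (adjusted p = 0.117). Pcdh8, an activity-induced protocadherin also named arcadlin (0.29, SE 0.13, adjusted p = 0.110), Pcdh10, which guides striatal and thalamocortical axons (0.22, SE 0.09, adjusted p = 0.0796), and Pcdh19, the gene of a female-limited epilepsy (-0.15, SE 0.08, adjusted p = 0.183), did not pass the threshold. All 3 overlapped between the groups.

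Of the other protocadherins, Pcdh12, which was first described as a vascular endothelial cadherin, showed the second largest change of the 29 genes. It was at 6.21, 7.64, 8.73 and 9.06 CPM in control and at 2.57, 3.05, 4.16 and 2.02 CPM in dcKO replicates 1 to 4. All mutants lay below all controls. The log2 fold change was -1.43 (SE 0.22, adjusted p = 3.48e-04), so that the dcKO mean was 62.8% lower. Beside it, the endothelial marker Cdh5, left out of the chosen genes, was at 24.0 to 34.2 CPM in control and 9.30 to 23.6 CPM in dcKO samples (-0.58, adjusted p = 0.106), and 4 of the 7 endothelial markers fell, Flt1 (-0.88), Pecam1 (-0.65), Tek (-0.63) and Kdr (-0.62). Of all genes tested, 18.9% fell. The part of the endothelial markers in the Pcdh12 result was not tested. Pcdh15, which pairs with Cdh23 in the tip link (-0.24, adjusted p = 0.134), and Pcdh20 (0.16, adjusted p = 0.434) were not called.

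**Figure D3:**
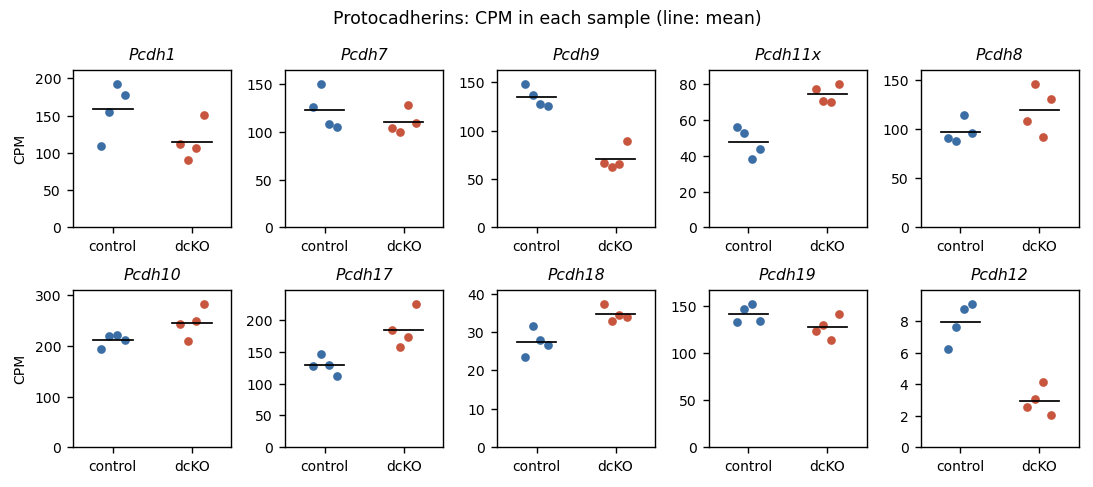
CPM (y axis, starting at 0) of the delta-1 and delta-2 protocadherins and Pcdh12 in each control (blue) and dcKO (red) sample, with the group mean as a line. Pcdh9 and Pcdh12 are lower in all 4 dcKO samples and Pcdh11x, Pcdh17 and Pcdh18 higher, while the other 5 genes overlap.

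Levels were compared between genes only as CPM per kilobase of annotated exon. By this length Cdh2 was the most abundant in control cortex, at 28.0 ± 2.41 CPM per kb (SD, n = 4). It was followed by Pcdh8 (21.4 ± 2.54), Cdh13 (20.3 ± 1.57), Pcdh9 (19.8 ± 1.52) and Pcdh1 (18.03 ± 4.12). The levels from Pcdh8 to Pcdh1 in that order differed from their neighbours by less than the larger SD of each pair. A control level of at least 5 CPM per kb was reached by 16 of the 34 genes, and 17 with the longest transcript as length. In dcKO cortex, per kb of exon, Pcdh8 (26.2 ± 5.26) and Cdh2 (21.6 ± 2.99) held the first and second places and differed by less than the larger SD. Pcdh9 went from rank 4 to 10 (10.4 ± 1.84 CPM per kb in dcKO), Cdh11 from 7 to 12 (14.98 ± 1.12 to 8.01 ± 1.66) and Cdh20 from 13 to 21 (7.39 ± 0.271 to 2.48 ± 0.424). Pcdh17 went from rank 12 to 5 (9.89 ± 1.09 to 14.2 ± 2.19) and Pcdh10 from 9 to 4 (13.3 ± 0.816 to 15.5 ± 1.86). The order depends on the length used. With the longest transcript as length, Cdh13 (228 CPM, 4565 bases) lay above Cdh2 (226 CPM, 4843 bases) in control cortex. In dcKO cortex Cdh13 (203 CPM) then lay above Cdh2 (174 CPM) and Pcdh8 (119 CPM, 4529 bases).

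**Figure D4:**
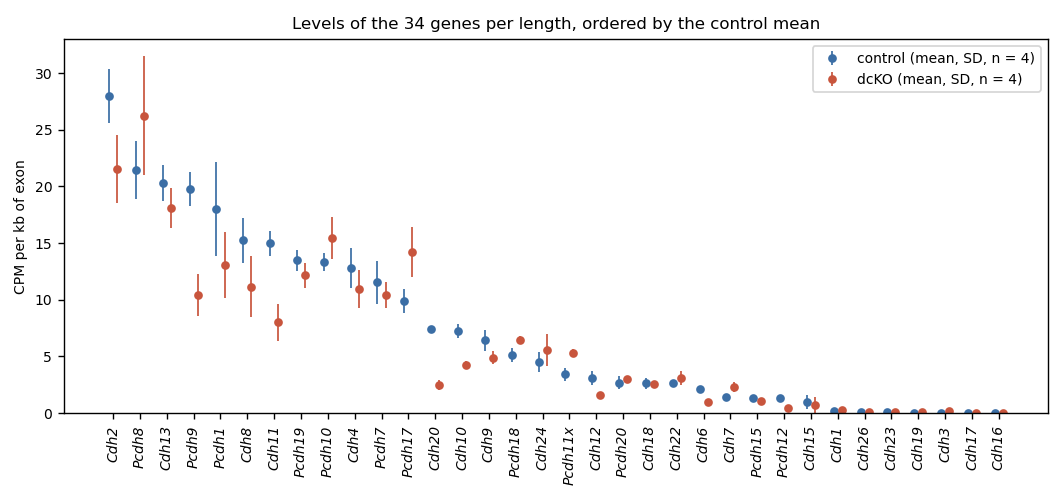
Expression level per length (CPM per kb of exon, y axis) of all 34 genes, ordered by the control mean (x axis), as mean and SD of 4 control (blue) and 4 dcKO (red) samples. Pcdh9, Cdh11 and Cdh20 sit well below their control level in dcKO cortex and Pcdh17 above it.

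The make-up of each family was described from the same per-length levels. The total of type I and II cadherins was 113.8, 112.7, 110.8 and 101.9 CPM per kb in control and 83.3, 75.0, 77.9 and 86.2 CPM per kb in dcKO replicates 1 to 4, with no overlap. Cdh2 supplied 25.4 ± 1.14% of it in control and 26.7 ± 2.13% in dcKO cortex (SD, n = 4), a difference smaller than the spread between samples. The share of Cdh20 was 6.74 ± 0.360% in control and 3.11 ± 0.667% in dcKO cortex, whereas that of Cdh7 was 1.29 ± 0.131% and 2.87 ± 0.394%. Cdh24, whose CPM was not called, took 4.14 ± 0.752% of the total in control and 6.84 ± 1.35% in dcKO cortex, and these shares did not overlap. The shares of Cdh22, which was not called, and Cdh19, which was not tested, also lay above all controls. A share can rise because the total falls. The CPM of Cdh24 overlapped, at 13.4 to 20.4 in control and 15.2 to 26.2 in dcKO samples. For the delta protocadherins the total overlapped between the groups, at 109 to 122 and 105 to 130.04 CPM per kb. Within it Pcdh9 went from 17.1 ± 1.99% to 9.14 ± 0.729% and Pcdh17 from 8.52 ± 0.788% to 12.5 ± 0.974%.

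Genes that work with the cadherins were read from 4 lists, of catenins and adaptors, the WAVE complex, nectins, and giant cadherins with calsyntenins. All 36 were tested, and 18 fell, 2 rose and 16 were not called, with a median log2 fold change of -0.21. Of all genes tested, 18.9% fell and 18.6% rose. The number that fell was 11 without dcKO replicates 1 and 2, and the number that rose was 4 without dcKO replicate 4 and with library totals. Over all genes, 1581 of 17229 fell without dcKO replicates 1 and 2, against 3128 of 16525 with all samples. Without dcKO replicate 4, 3308 of 16481 genes rose, and with library totals 4584 of 16525.

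Beta-catenin itself, Ctnnb1, which links classical cadherins to alpha-catenin and also serves WNT signalling, was at 915 ± 5.37 CPM in control and 911 ± 28.6 CPM in dcKO cortex (SD, n = 4), with a log2 fold change of -0.01 (SE 0.06, adjusted p = 0.938). Of the 11 catenins and adaptors 4 fell and none rose. Ctnnd2, the neuronal delta-catenin of dendritic spines, was at 405, 407, 412 and 379 CPM in control and at 289, 288, 294 and 312 CPM in dcKO replicates 1 to 4. All mutants lay below all controls (-0.44, SE 0.07, adjusted p = 3.48e-04). Pkp4, a relative of the p120 catenins, was 164 ± 11.3 CPM in control and 109 ± 10.3 CPM in dcKO cortex (-0.59, adjusted p = 2.75e-04), and Jup (-0.39) and Arvcf (-0.32) were the other 2 that fell.

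Of the 9 WAVE complex genes 5 fell, Cyfip2 (-0.52), Nckap1 (-0.39), Abi2 (-0.36), Wasf1 (-0.32) and Cyfip1 (-0.23), and none rose. Nckap1, the subunit bound by Pcdh10, was at 482 to 515 CPM in control and 354 to 401 CPM in dcKO samples, without overlap (SE 0.07, adjusted p = 0.00101). Cyfip2 was at 414 to 478 CPM in control and 280.2 to 365 CPM in dcKO samples (SE 0.09, adjusted p = 9.40e-04). Of the 4 nectins, immunoglobulin-type adhesion proteins that join cadherin junctions through afadin, 2 fell. Nectin3 was at 74.6, 74.6, 71.9 and 73.4 CPM in control and at 31.7, 21.2, 34.8 and 29.5 CPM in dcKO replicates 1 to 4. Its controls were almost equal and each mutant lay far below them (-1.33, SE 0.13, adjusted p = 1.16e-05), and Nectin1 changed by -0.35 (adjusted p = 0.0230).

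The 12 giant cadherins and calsyntenins gave 7 falls and 2 rises. Clstn2, calsyntenin-2, a postsynaptic member of the cadherin superfamily, was at 124, 129, 134 and 135 CPM in control and at 32.1, 37.4, 32.5 and 43.7 CPM in dcKO replicates 1 to 4. Its log2 fold change was larger than that of Cdh20, a difference that was not tested (-1.84, SE 0.10, adjusted p = 4.10e-07). Fat3 (-1.22, SE 0.12), which shapes dendrites, Celsr2 (-0.97, SE 0.11), a planar polarity cadherin, and Fat4 (-0.87, SE 0.11), the receptor that pairs with Dchs1, fell without overlap between the groups. Clstn1 (-0.49), Fat1 (-0.40) and Clstn3 (-0.33) fell less. Fat2, a cerebellar granule cell gene, was at 0.345 to 0.996 CPM in control and 1.60 to 2.52 CPM in dcKO samples (1.65, SE 0.33, adjusted p = 0.00212), and Dchs2 at 2.29 to 3.75 and 4.32 to 8.88 CPM (1.24, SE 0.24, adjusted p = 0.00171). Both rose from low levels.

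**Figure D5:**
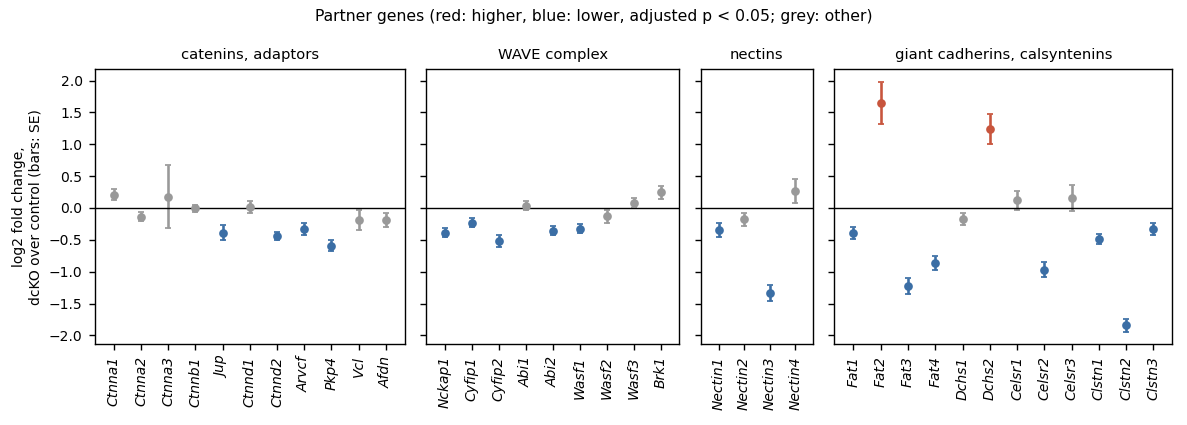
Log2 fold change (dcKO over control, y axis) of the 36 partner genes in 4 lists (x axis), with bars for the standard error; red and blue mark genes called higher and lower and grey the others. Clstn2 (-1.84), Nectin3 (-1.33) and Fat3 (-1.22) lie lowest, and Ctnnb1 lies at -0.01.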

How the data were processed

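The P3 cortex of 4 control and 4 dcKO_hGFAP-Cre mice was sequenced. The authors prepared cDNA libraries with the TruSeq RNA kit (version 2), aligned reads to mm10, and counted them per gene with featureCounts. They deposited raw counts, without normalization, 1 table per sample, and the annotation, strand setting and aligner are not given in the sources used here. Ensembl identifiers were matched to symbols, positions and exon lengths in GENCODE's annotation of the same build (48349 of 48709).

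Counts were fitted with edgeR (4.0.16, R 4.3.3): TMM, its default filter (minimum count 10), robust quasi-likelihood F test over 16525 genes, no block, and Benjamini-Hochberg adjustment with a threshold of 0.05. DESeq2 (1.42.0), the tool of the study, and limma-voom (limma 3.58.1) were alternatives, as were other size factors, library totals, other filters, blocks for replicate number and lane, and each sample left out. Removing dcKO replicates 1 and 2 was added after seeing the data. P-values measure only the spread between these samples, and floors of 3 counts cover counting error only. No pair of replicates agreed within sampling noise. The fit was first tested on simulated data.

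The genes, lists and tests were chosen with earlier results of these data known. Every gene of the name rule is named. Partner genes are named when called with a log2 fold change of 0.5 or more in size, together with Ctnnb1 and Ctnnd2. The smaller called partners, the endothelial, radial glia and astrocyte markers and Gbx2 were named after their values were seen. So were the striatal markers Ppp1r1b, Tac1 and Drd1, and Slc17a6. Promoter sequences are RefSeq's on GRCm38.p6.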

Additional observations from a re-analysis of the deposited data

Results flagged for a closer look

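In 6 of 62 groups of 4 samples examined, 1 sample lay farther from its nearest neighbour, relative to the range of the group, than Dixon's 95% critical value allows, and chance alone gives about 1 in 20, or 3.1. Cdh7 met this in both groups: control replicate 3 was lowest at 12.4 CPM, against 14.7 to 14.9 CPM in the other controls, and dcKO replicate 4 was highest at 29.7 CPM, against 20.8 to 21.4 CPM. Pcdh9 was highest in dcKO replicate 4, at 89.4 CPM against 62.5 to 66.5 CPM in the other mutants. Among controls, Cdh9 was highest in replicate 2 (27.7 CPM against 20.7 to 21.5 CPM), Cdh22 was lowest in replicate 2 (8.23 CPM against 10.1 to 10.4 CPM) and Cdh11 was lowest in replicate 1 (119 CPM against 137 to 140.1 CPM). Both mutant values came from dcKO replicate 4. The calls of Cdh7, Cdh11 and Pcdh9 held when any 1 sample was left out, and that of Cdh9 was lost without control replicate 2.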

How the results depend on the processing

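Of the 14 called genes, 10 kept their call in all 17 alternative fits, and none of the 14 changed direction. Cdh2, Cdh8, Cdh9 and Pcdh18 lost theirs in at least 1. Over all tested genes of the family, 491 single values were recomputed: 451 kept their direction and side of the threshold, 20 lost the call, 14 gained one and 6 changed sign. The sign changes were all in uncalled genes: Cdh1 became -0.0046 with limma-voom and ranged from -0.30 (without dcKO replicate 1) to 0.74 with 1 sample left out, and Cdh18 became 0.063 with library totals and ranged from -0.16 to 0.017 with 1 sample left out, above 0 without dcKO replicate 4, control replicate 1 or control replicate 2. Library totals moved the median of all genes by 0.12 (log2) and the share of higher calls from 49.6% to 68.6% (4584 higher and 2102 lower, against 3074 and 3128), which made 7 of the family higher and 7 lower and 4 partner genes higher. Leaving out 1 sample gave 3 to 7 of the family higher, 8 to 10 lower, 2 to 4 partners higher and 13 to 19 lower, with 7 higher without dcKO replicate 3 (Cdh22, Cdh23 and Pcdh8 were added), 4 partners higher without dcKO replicate 4 and 13 partners lower without control replicate 3. Over all genes, 3125 of 16489 were higher without dcKO replicate 3 and 3308 of 16481 without dcKO replicate 4. Without control replicate 3, 2375 of 16576 were lower. Without dcKO replicates 1 and 2, chosen after seeing the data, 4 of the family were higher and 8 lower, and 11 partners were lower. Over all genes that fit called 1388 higher and 1581 lower of 17229, against 3074 and 3128 of 16525 with all samples. DESeq2 gave 5 higher and 11 lower, and over all genes 3136 higher and 3427 lower of 19316. Of the 5, Cdh7, Pcdh11x, Pcdh17 and Pcdh18 were among the 29 genes tested in edgeR, and the remaining gene was outside them. With the replicate number as a block, 4 of the family were higher and 10 lower, 2 partners were higher and 17 lower, and Smarcc1 and Smarcc2 changed by -0.97 and -0.77. With the lane as a block (replicates 1 and 2 of both groups on lane 5, the others on lanes 6 and 7), 4 of the family were higher and 10 lower. Over all genes, 2932 were higher and 2982 lower with the replicate block, and 3208 and 3242 with the lane block. Under either block Cdh8 lost its call and Pcdh1 gained one. Deviations of same-numbered samples correlated between -0.07 and 0.21, with 2 of 4 pairs over 0.1, so the numbers were not taken as a pairing. Genes under about 0.148 CPM lie below 3 counts in the shallowest library.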
